A study of Mus musculus with 2 samples.

Results

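The genes described here are 9 members of IL-6 family signalling and its C/EBP factors, out of 17139 genes listed in both libraries. They were taken by name: Il6, the receptor chains Il6st, Il6ra, Lifr and Osmr, the transcription factor Stat3, its inhibitor Socs3, and the transcription factors Cebpb and Cebpd. Endothelial cells (ECs) were profiled by droplet-based scRNA-seq from subcutaneous tumours of LLC, a Lewis lung carcinoma line, grown in adult C57BL/6 mice (C57BL/6 J in the methods). The tumours received PBS or cGAMP (14 µg in 70 µl), and live CD45-/CD31+ cells were sorted 24 h later, although another passage of the study gives 6 h. The methods give male mice of 8 to 9 weeks. cGAMP is the cyclic dinucleotide that activates STING, an innate sensor upstream of interferon and NF-κB signalling. Each condition is 1 library from 1 mouse, so no difference between the conditions has a replicate check and no test was made. All intervals given are 95% intervals and cover counting error only.

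Cytokines of the IL-6 family signal through receptor pairs that contain gp130, the shared chain encoded by Il6st. Ligand binding activates JAK kinases and STAT3, and STAT3 switches on Socs3, whose product blocks the same receptors. ECs usually hold little of the membrane-bound IL-6 receptor and can respond to IL-6 through its soluble form, while LIFR and OSMR give them access to LIF and oncostatin M. C/EBPβ and C/EBPδ are transcription factors that bind the Il6 promoter and acute-phase genes, and their own genes respond to inflammatory signals.

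The PBS library held 2517 cells and 92081146 UMIs, with a median of 29780 UMIs per cell, and the cGAMP library 1340 cells and 63366746 UMIs, with a median of 41178. The median mitochondrial share of UMIs was 4.49% and 2.87%. All 8 endothelial markers were above 5 CPM (UMIs of a gene scaled to a common library total of 1000000) in both libraries, Pecam1 at 944 and 824 CPM and Cdh5 at 1146 and 1008 CPM. Of the 12 leucocyte markers listed, 10 were in the files, none of them at 0 UMIs. Their summed level was 16.1 CPM in PBS-treated and 45.3 CPM in cGAMP-treated ECs, led in the second by Lyz2 and S100a9. The 9 fibroblast and pericyte markers summed to 22.7 and 12.3 CPM, and of these Pdgfra had 0 UMIs with cGAMP. These shifts went with every difference between the libraries given here, and the part they had in them was not tested beyond the subsets of cells named below.

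Il6 and Cebpb were higher in the cGAMP-treated ECs by the largest amounts among the 9 genes, and the genes for gp130, STAT3 and C/EBPδ differed little. Il6, the cytokine, stood at 32.9 CPM with PBS (exact Poisson interval 31.8 to 34.1) and at 92.8 CPM with cGAMP (90.4 to 95.2). Cebpb stood at 40.1 CPM (38.8 to 41.4) and 131 CPM (128 to 133). The log2 ratio of cGAMP over PBS was 1.50 for Il6 (exact conditional interval 1.43 to 1.56) and 1.70 for Cebpb (1.65 to 1.76). Lifr, the chain that binds LIF and pairs with gp130, was at 15.5 and 34.1 CPM, a log2 ratio of 1.14 (1.05 to 1.24). Socs3, the feedback inhibitor, was at 169 and 317 CPM, a log2 ratio of 0.90 (0.87 to 0.93), short of 2-fold. Of the 8 members that reached 5 CPM in a library, 3 were thus 2-fold or more higher, against 1.82% of all 9508 genes at that level. None of the 8 was 2-fold or more lower, against 1.69% of all genes.

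The other 5 genes lay close to their PBS level. Il6st was at 112 and 128 CPM (log2 ratio 0.18) and Osmr, the oncostatin M receptor chain, at 23.8 and 27.5 CPM (0.21). Stat3 was at 141 and 132 CPM (-0.09) and Cebpd at 170 and 155 CPM (-0.14). None of these 4 intervals included 0, and the median over all genes was -0.08. Il6ra, the ligand-binding chain for IL-6, had only 140 UMIs in the PBS and 103 in the cGAMP library, which is 1.52 and 1.63 CPM. Its log2 ratio of 0.10 had an interval from -0.28 to 0.47, so no difference could be seen at this depth. The median log2 ratio of the 8 members with at least 5 CPM was 0.55.

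**Figure D1:**
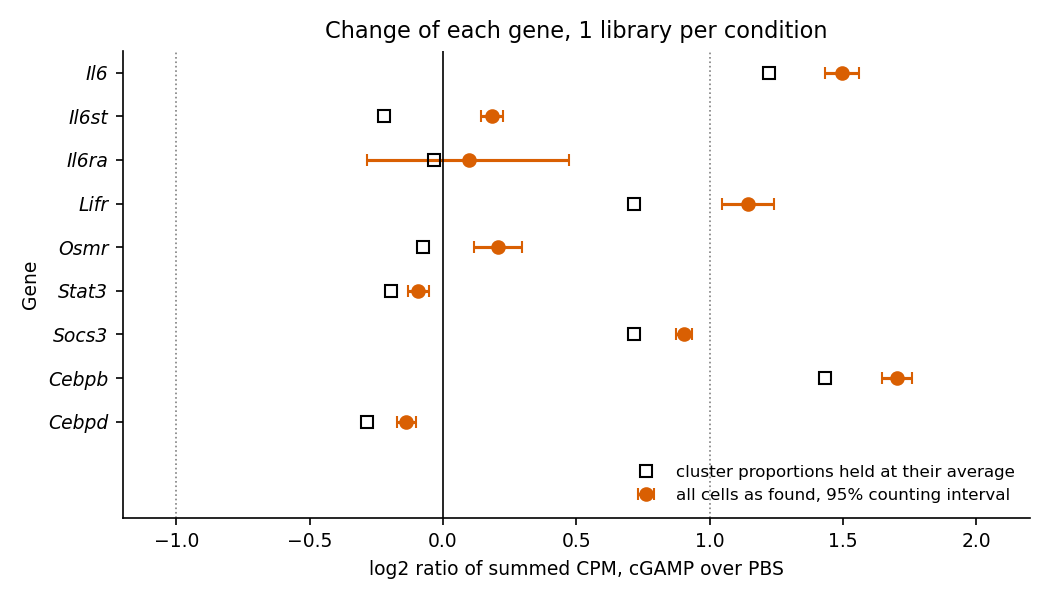
Log2 ratio of summed CPM, cGAMP over PBS, for the 9 genes on the horizontal axis, with 95% counting intervals (filled circles) and the ratio with the same mix of clusters given to both libraries (open squares). Dotted lines mark 2-fold; Il6, Lifr and Cebpb lie past the upper line as found, and with the mix held Lifr falls to 0.72 while Il6st and Osmr pass to the other side of 0.

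The coordinates of the members, in GENCODE vM21 on GRCm38, place all 9 as protein-coding genes with no overlapping gene on their own strand. Il6 lies on chromosome 5 from 30013114 to 30019981 (plus strand), Cebpb on chromosome 2 from 167688915 to 167690418 (plus), Socs3 on chromosome 11 from 117966079 to 117970047 (minus) and Cebpd on chromosome 16 from 15887286 to 15891031 (plus). Genes on the opposite strand overlap Il6ra (Gm42809), Stat3 (Stat5a), Cebpb (Tmem189) and Cebpd (Spidr). The start-site windows of Il6, Socs3 and Cebpb, each from 250 bases before to 50 bases after a RefSeq start site on GRCm38.p6, are shown because these 3 genes were higher with cGAMP, with the counting interval above 0, in every cluster described below. Capitals mark the motif matches found in them.
Il6 (chr5:30012864-30013163, plus strand): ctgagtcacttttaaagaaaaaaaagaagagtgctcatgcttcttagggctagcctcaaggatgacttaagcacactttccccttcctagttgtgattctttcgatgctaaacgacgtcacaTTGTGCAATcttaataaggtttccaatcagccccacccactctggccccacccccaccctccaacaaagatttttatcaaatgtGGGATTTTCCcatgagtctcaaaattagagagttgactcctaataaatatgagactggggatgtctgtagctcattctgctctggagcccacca
Socs3 (chr11:117969317-117969616, minus strand): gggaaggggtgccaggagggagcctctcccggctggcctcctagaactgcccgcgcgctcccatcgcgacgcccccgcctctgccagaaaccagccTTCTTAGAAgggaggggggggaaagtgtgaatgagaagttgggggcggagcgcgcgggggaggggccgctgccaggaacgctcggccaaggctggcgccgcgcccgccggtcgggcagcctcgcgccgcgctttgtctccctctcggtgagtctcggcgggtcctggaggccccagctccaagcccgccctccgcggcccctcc
Cebpb (chr2:167688665-167688964, plus strand): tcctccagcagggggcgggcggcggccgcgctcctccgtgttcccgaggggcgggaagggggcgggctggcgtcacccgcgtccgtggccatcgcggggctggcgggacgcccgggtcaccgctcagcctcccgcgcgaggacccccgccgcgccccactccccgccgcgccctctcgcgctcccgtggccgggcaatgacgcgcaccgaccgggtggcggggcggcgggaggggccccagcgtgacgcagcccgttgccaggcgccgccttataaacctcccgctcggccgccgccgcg

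The motifs searched, on both strands, were TTNNGNAAT for C/EBP, the 10-letter κB consensus for NF-κB, TTCNNNGAA for STAT factors and GAAANNGAA, the core of the interferon-stimulated response element. The forms searched for NF-κB and the response element were replaced by these looser ones after matches had been seen, which left the matches in the members' windows as they were and raised the shares of all windows given below. No match overlapped another in the windows shown. The Il6 window held the C/EBP letters TTGTGCAAT at -128 to -120 and the κB match GGGATTTTCC at -44 to -35, counted from the start site as 0. The Socs3 window held the STAT letters TTCTTAGAA at -154 to -146, counted from its RefSeq start site. That window, from 117969317 to 117969616, lies inside the GENCODE span of Socs3, which begins at 117970047 on the minus strand. The match thus lies within the annotated gene and not before it. The Cebpb window held none of the 4 motifs. Windows were found for 8 of the 9 members, 9 windows in all, and Cebpd had none. Besides Il6 and Socs3, only Stat3 had a match, to the C/EBP letters. Among 32851 mouse start-site windows of this length, 11.5% held the C/EBP letters, 8.46% a κB match, 8.30% the STAT letters and 8.56% the response element core. A match describes the letters only, and binding was not measured.

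The ECs fell into 8 clusters that were built without the 9 genes, the pathway lists below and genes that differed 2-fold or more between the libraries. Lrg1, a pathway list gene that is also a stalk-like marker, was not removed by this rule. Cluster 3 was stalk-like (8 of 10 markers raised, led by Ackr1 and Selp; 329 PBS-treated and 334 cGAMP-treated cells). Cluster 4 was arterial-like (10 of 10 markers; 350 and 174 cells) and cluster 2 proliferative-like (12 of 12; 495 and 181). Clusters 5 and 7 were tip-like, cluster 5 led by Gal and Chga (8 of 11 markers; 385 and 126 cells) and cluster 7 by Pgf and Bnip3 (7 of 11; 99 and 59). Cluster 1, led by Ramp3 and Igfbp3 (624 and 279 cells), and cluster 6, led by Ung and Hells (188 and 133), were left unnamed. So was cluster 8, led by Igfbp5 and Ctsh (47 and 54 cells), in which all 10 stalk-like markers were raised although none was among its 10 leading genes. The stalk-like cluster 3 made up 13.1% of ECs with PBS (11.8% to 14.5%, exact) and 24.9% with cGAMP (22.6% to 27.3%). Cluster 8, not counted in this share, made up 1.87% and 4.03%. Cluster 7 had the highest leucocyte marker level, 41.8 CPM in the PBS and 294 CPM in the cGAMP library, whereas the other 7 lay between 12.9 and 20.3 CPM and between 29.7 and 45.7 CPM.

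In the PBS-treated ECs all 8 members with at least 5 CPM were highest in cluster 3 or cluster 8, the clusters with most stalk-like markers, against 33.1% of all genes. Il6 was at 140 CPM in cluster 8 and 89.9 CPM in cluster 3. It then stood at 46.8 CPM in cluster 4, 36.6 CPM in cluster 6, 27.0 CPM in cluster 1 and 24.1 CPM in cluster 2. The tip-like clusters were lowest, at 15.0 CPM in cluster 5 and 9.87 CPM in cluster 7. The intervals of neighbours in this order overlapped for clusters 1 and 2 and for clusters 5 and 7 only. The highest level was 14.2 times the lowest. Lifr and Osmr were spread even wider between clusters, 19.2-fold and 17.2-fold, and Stat3 least, 2.30-fold. At resolution 0.8, which gave 11 clusters, 6 members were highest in a cluster with 5 or more stalk-like markers raised. Osmr and Stat3 were not.

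**Figure D2:**
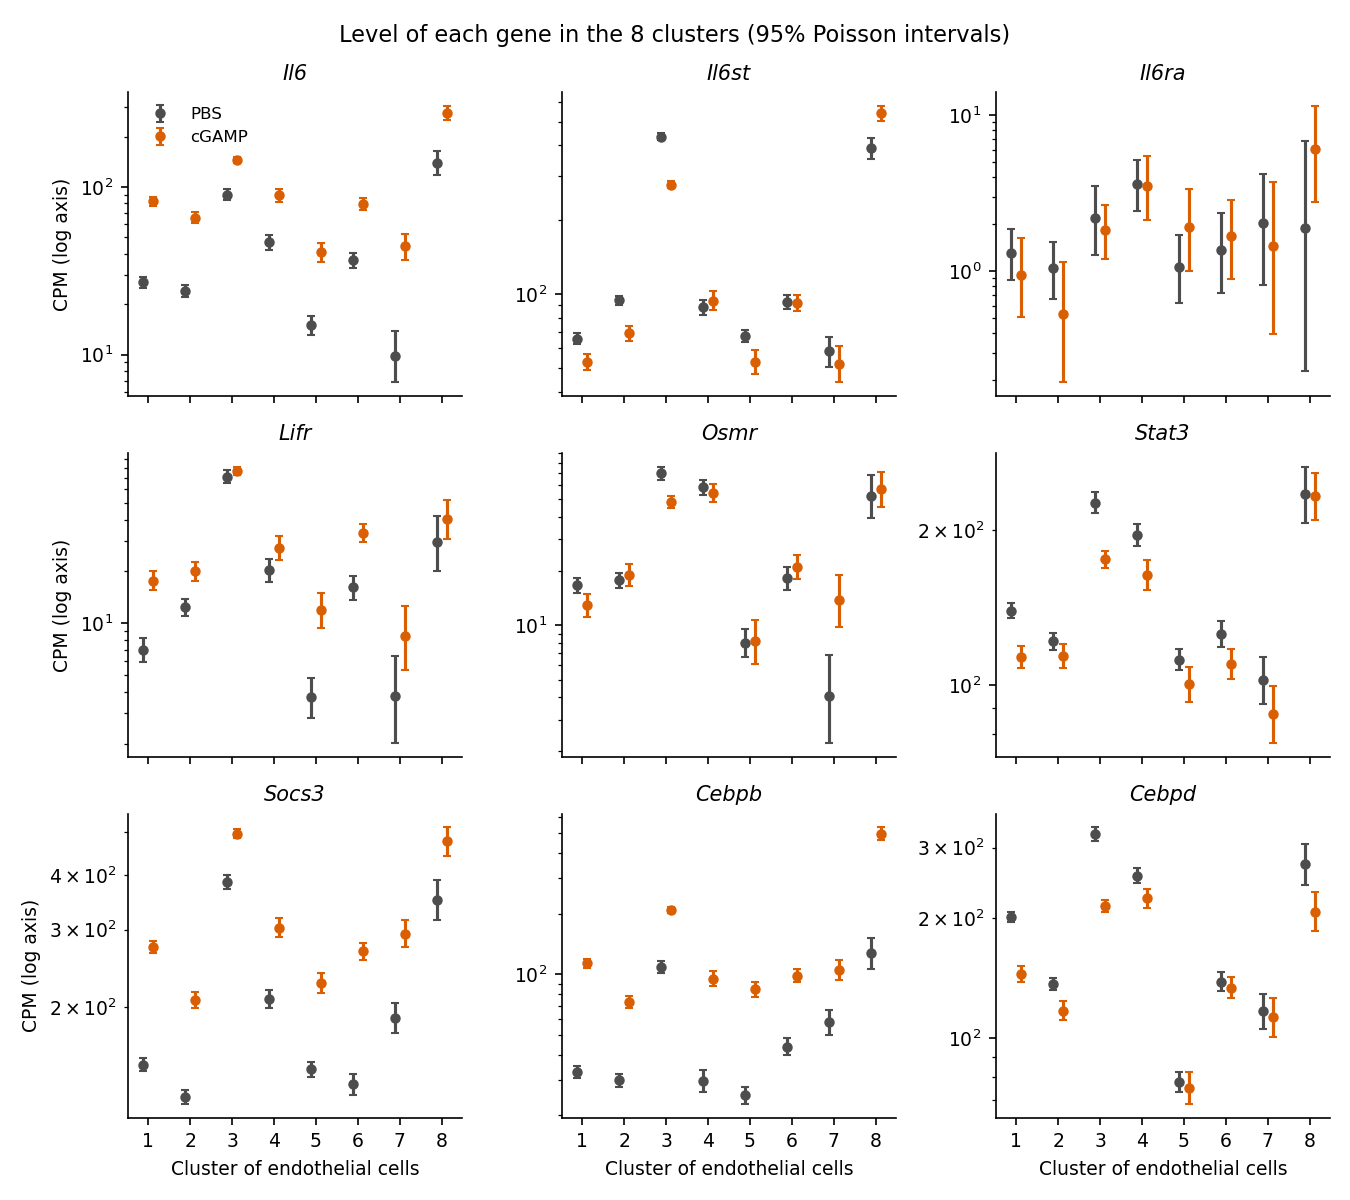
Level of each gene in CPM (log axis) in the 8 clusters of the PBS library (grey) and the cGAMP library (orange), with 95% Poisson intervals. Il6, Socs3 and Cebpb lie higher in the cGAMP library in all 8 clusters, and clusters 3 and 8 hold the highest levels of most genes.

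With cGAMP, Il6 was higher in all 8 clusters, with every interval above 0. It reached 277 CPM in cluster 8 and 144 CPM in cluster 3. Clusters 4, 1 and 6 stood at 89.1, 82.3 and 79.2 CPM, with overlapping intervals between neighbours. Cluster 2 stood at 65.6 CPM, and the tip-like clusters 7 and 5 at 44.2 and 40.8 CPM. The log2 ratio was smallest in the stalk-like cluster 3, at 0.68 (0.56 to 0.81), and largest in cluster 7, at 2.16 (1.60 to 2.76), where it rests on 34 and 121 UMIs. The level thus differed 6.78-fold between the highest and the lowest cluster. The stalk-like cluster held 23.0% of all Il6 UMIs with PBS and 36.2% with cGAMP. Its share of the UMIs of all genes was 8.44% and 23.3%.

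Cebpb was also higher in all 8 clusters, by log2 ratios from 0.86 in cluster 7 to 1.96 in cluster 8. In cluster 8 it went from 128 to 497 CPM, and in cluster 3 from 109 to 208 CPM. In the arterial-like cluster 4 it was at 29.6 CPM with PBS and 95.2 CPM with cGAMP. Socs3 was higher in all 8 clusters by 0.36 (cluster 3) to 1.01 (cluster 6). It was highest in cluster 3, at 386 CPM with PBS and 496 CPM with cGAMP, and lowest in the proliferative-like cluster 2, at 125 and 208 CPM. Lifr was higher in all 8 clusters too, but in clusters 3 and 8 the interval included 0. In cluster 3, where Lifr was most abundant, it was at 71.1 and 76.6 CPM, and in the tip-like cluster 5 at 3.71 and 11.9 CPM. So 4 members were higher in all 8 clusters, against 14.1% of all genes with at least 5 CPM. At a finer clustering of 11 clusters, only Cebpb was higher in each: 1 of these clusters, with 70 and 55 cells, had log2 ratios of -0.45 for Il6, -0.46 for Lifr and -0.15 for Socs3.

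Stat3 and Cebpd, 2 of the 8 members with at least 5 CPM, were lower in all 8 clusters, against 18.9% of all genes. With other clusterings each had an exception: at the finer one Stat3 had a log2 ratio of 0.14 in 1 cluster of 233 and 124 cells, and without integration Cebpd had 0.13 in 1 cluster of 375 and 144 cells. For each of them 5 of the 8 intervals lay below 0. The log2 ratio of Stat3 ran from -0.37 in cluster 3 (227 to 176 CPM) to -0.01 in cluster 8 (235 and 233 CPM). That of Cebpd ran from -0.60 in cluster 3 (324 to 214 CPM) to -0.05 in clusters 5, 6 and 7. Relative to Cebpd, Cebpb was more abundant with cGAMP: the log2 ratio of Cebpb UMIs to Cebpd UMIs was 1.84 higher in the cGAMP library, and 0.91 (cluster 7) to 2.36 (cluster 8) higher within clusters.

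Il6st, the gp130 gene, differed in direction between these 8 clusters, but not under every clustering. In cluster 3 it was at 435 CPM with PBS and 277 CPM with cGAMP, a log2 ratio of -0.65 (-0.71 to -0.58). In cluster 8 it was at 390 and 540 CPM, a log2 ratio of 0.47 (0.30 to 0.64). Clusters 1, 2 and 5 were lower with cGAMP by intervals below 0, and in clusters 4, 6 and 7 the interval included 0. At resolution 0.3 Il6st was lower with cGAMP in all 4 clusters, and without integration in all 5 clusters compared. The stalk-like cluster held 32.6% of the Il6st UMIs with PBS and 50.5% with cGAMP, and 8.44% and 23.3% of the UMIs of all genes. With cluster proportions held at the mean of both, the log2 ratio of Il6st over all ECs was -0.22, against 0.18 as found.

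Osmr was lower with cGAMP in cluster 3 (69.9 to 48.5 CPM, log2 ratio -0.53) and cluster 1 (16.7 to 12.9 CPM, -0.37). In cluster 7 it was higher, 4.06 to 13.9 CPM, a log2 ratio of 1.77 (0.86 to 2.77), from 14 and 38 UMIs. In the other 5 clusters the interval included 0. With proportions held, its ratio over all ECs was -0.08. Il6ra had at most 30 UMIs in any cluster and library, and all 8 intervals of its ratio included 0. Its level was highest in the arterial-like cluster 4 with PBS, at 3.61 CPM (2.43 to 5.15), and lowest in cluster 2, at 1.04 CPM (0.668 to 1.55). With cGAMP it was highest in cluster 8, at 6.05 CPM (2.77 to 11.5), followed by cluster 4 at 3.53 CPM (2.12 to 5.51), and lowest in cluster 2, at 0.528 CPM (0.194 to 1.15). The intervals of neighbours in each order overlapped.

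**Figure D3:**
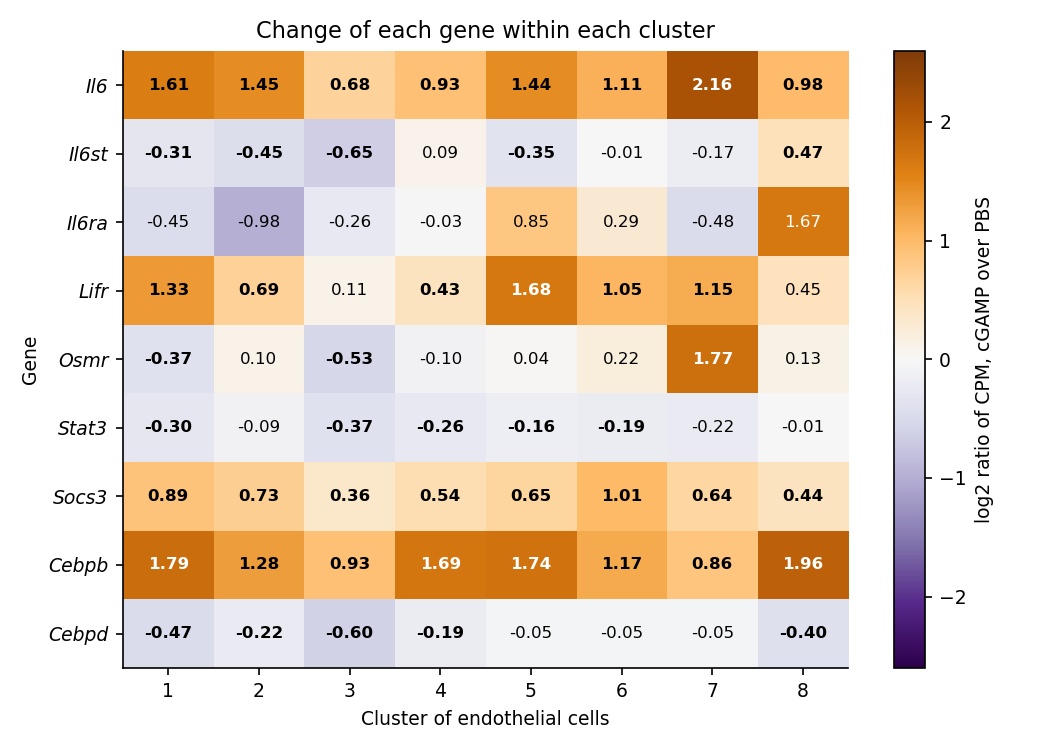
Log2 ratio of CPM, cGAMP over PBS, of each gene (rows) within each cluster (columns), printed in the cells and coloured from purple (lower with cGAMP) to orange (higher); bold print marks 95% counting intervals that exclude 0. Il6, Socs3 and Cebpb are bold and positive across all 8 clusters, and Il6st is bold in both directions.

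Holding the cluster proportions made each of the 9 ratios lower. Il6 then stood at 1.22, Cebpb at 1.43, Socs3 at 0.72 and Lifr at 0.72, so that 2 members and no longer 3 were past 2-fold. The mean of per-cell CPM also left Lifr short of 2-fold. With cluster proportions held, Stat3 stood at -0.20 and Cebpd at -0.28. In the 1044 PBS-treated and 320 cGAMP-treated ECs without a UMI of any leucocyte, fibroblast, pericyte or epithelial marker, Il6 had a log2 ratio of 1.66, Cebpb of 1.83 and Socs3 of 1.04, all above the ratio over all ECs. Without cluster 7, Il6, Lifr and Cebpb were past 2-fold, the same members as over all ECs.

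The share of ECs with a UMI was also higher with cGAMP for Il6, Lifr, Socs3 and Cebpb. Each cell was thinned to 5000 UMIs, which left 2447 and 1327 cells and removed 70 and 13. Il6 UMIs were in 15.2% of cells with PBS (exact interval 13.8% to 16.7%) and in 32.6% with cGAMP (30.1% to 35.2%). Cebpb was found in 18.1% (16.6% to 19.7%) and 39.9% (37.3% to 42.6%). Socs3 was found in 49.6% and 66.8%, and Lifr in 8.30% and 17.1%, with intervals apart. At this depth Cebpd was the only member with a lower share and intervals apart, 51.6% (49.6% to 53.6%) and 46.2% (43.5% to 48.9%). For Il6st (37.6% and 38.5%), Osmr (12.2% and 14.5%) and Stat3 (48.6% and 46.3%) the intervals overlapped. At 10000 UMIs per cell the intervals of Cebpd (68.3% and 64.2%) overlapped and those of Stat3 (74.1% and 67.8%) lay apart. Without thinning, Il6 was found in 46.8% and 80.6% of ECs, and Cebpd in 86.8% and 89.1%, the other direction. Ptprc and Lyz2, which ECs should lack, had thinned shares of 0.163% and 1.80% with PBS and of 0.151% and 5.88% with cGAMP. The share for Il6ra, 0.858% and 0.754%, lay within that range.

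**Figure D4:**
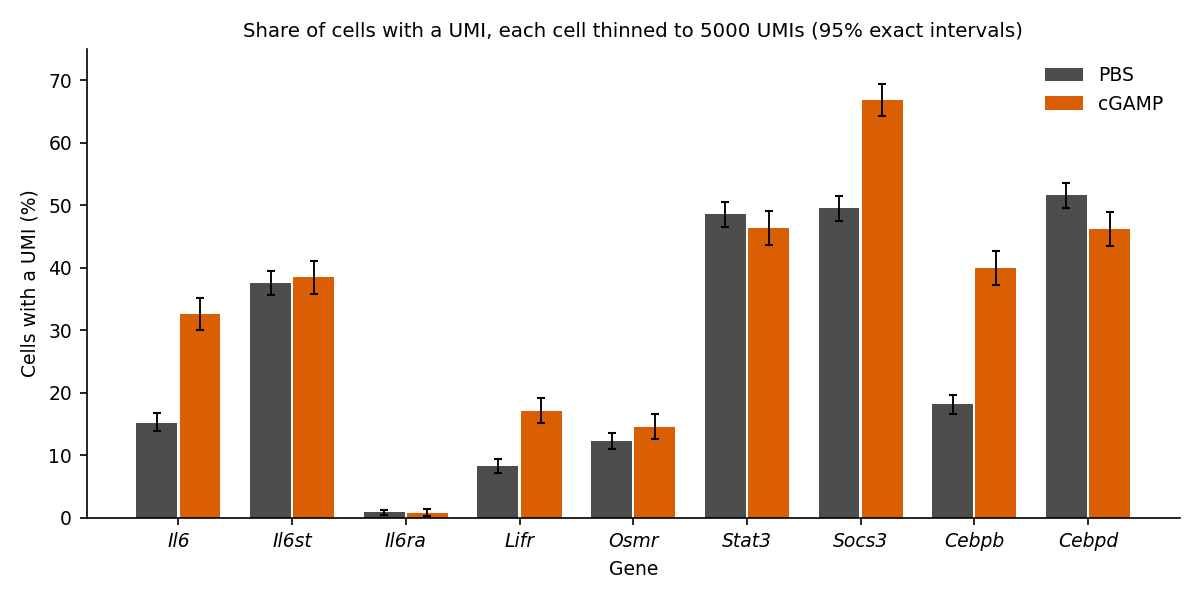
Share of ECs (%) with at least 1 UMI of each gene after thinning every cell to 5000 UMIs, in the PBS library (grey) and the cGAMP library (orange), with exact 95% intervals. The intervals lie apart for Il6, Lifr, Socs3 and Cebpb, higher with cGAMP, and for Cebpd, lower with cGAMP.

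Within the clusters, 30.2% of cluster 3 had an Il6 UMI with PBS and 44.6% with cGAMP, and 43.5% and 59.3% of cluster 8. In cluster 7 the shares were 4.12% and 20.3%. The level of Il6 did not rest on a few cells: the 5 ECs richest in Il6 held 3.13% of its UMIs with PBS and 3.49% with cGAMP. For the other members with at least 5 CPM, this share was between 1.13% and 4.80%, and for Il6ra 7.86% and 15.5%.

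Cells with UMIs of both Il6 and another member were 0.95 to 1.28 times as frequent as the product of their shares within clusters, leaving out Il6ra, which was found with Il6 in only 7 and 4 cells. Cebpb was found in 24.9% of thinned PBS-treated ECs with an Il6 UMI and 16.9% of those without, and in 49.9% and 35.1% of cGAMP-treated ECs. Relative to the product within clusters, cells with both genes were 1.15 times as frequent with PBS and 1.14 times with cGAMP. For Socs3 these values were 1.17 and 1.02, for Stat3 1.03 and 1.07, and for Cebpd 1.06 and 0.95. The same was 1.04 and 1.01 for Il6st, 1.28 and 1.03 for Lifr, and 1.13 and 1.06 for Osmr. Thinned cells of a cluster can still differ in state, and weak ratios in sparse counts were read as no finding.

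Across the 16 cluster-by-library sums, the genes most alike to Il6, Cebpb, Socs3 and Cebpd were ranked by Pearson's r of log2(CPM + 5), among 6045 genes. For Il6 these were Rcan1 (r = 0.96), a calcineurin regulator, the interferon-induced Ifitm2 (0.95) and Mgst1 (0.94), a glutathione transferase. For Cebpb they were Ctsz (0.92), a cathepsin, Ifi27l2a (0.92), an interferon-induced gene, and Socs3 (0.90). For Socs3 they were Casp4 (0.94), Ier5 (0.92) and Nfkbia (0.91), which encodes an NF-κB inhibitor. For Cebpd they were the transcription factor gene Mafk (0.94), the ceramidase gene Acer2 (0.94) and Adgrg1 (0.93). The 16 points share 2 libraries, 8 clusters and their depth, so these values describe likeness only.

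The other genes of the pathway were mostly little different between the libraries. Of 51 list genes with at least 5 CPM, 5 were 2-fold or more higher with cGAMP, against the 1.82% of all genes. Of these 5, Cebpa, Csf3 and Lcn2 met the 5 CPM minimum only in the cGAMP library, so the minimum fixed their direction. None of the 51 was 2-fold or more lower, and their median log2 ratio was 0.06. Among the other IL-6 family ligands only Clcf1 reached 5 CPM (6.21 and 6.55 CPM, log2 ratio 0.08). Il11, Lif, Osm, Ctf1, Il27 and Ebi3 did not. The receptor chains Il11ra1 (30.2 and 29.8 CPM) and Il27ra (7.60 and 9.11 CPM) had log2 ratios of -0.02 and 0.26. All 4 genes of receptor shedding, the proteases that release soluble IL-6 receptor and their partners, were lower with cGAMP, the direction of 59.6% of all genes with at least 5 CPM, with a median of -0.30. Adam10 was at 148 and 107 CPM (-0.47), Adam17 at 40.7 and 35.8 CPM (-0.18), Rhbdf1 at 17.2 and 13.6 CPM (-0.33) and Rhbdf2 at 13.5 and 11.2 CPM (-0.27).

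Of 6 kinases and adaptors, none was past 2-fold. Gab1, an adaptor, was at 21.7 and 12.5 CPM (log2 ratio -0.79), and the kinase genes Tyk2 and Jak2 had ratios of -0.45 and 0.25. Ptpn11, the phosphatase that binds gp130, had a ratio of -0.15. Of 10 inhibitors of JAK-STAT signalling, Socs1 alone was past 2-fold, at 6.64 and 17.8 CPM (1.42; interval 1.28 to 1.56). Cish (0.57), Ptpn2 (0.52) and Socs7 (-0.52) were the next in size. Of 7 genes that act on Il6 mRNA stability, none was past 2-fold. Zfp36, which encodes the decay factor tristetraprolin, was at 215 and 303 CPM (0.49), and Rc3h1 (-0.39), Zfp36l1 (-0.37) and Arid5a (-0.33) were lower.

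Of 11 STAT3 target genes with at least 5 CPM, 9 were higher and 2 lower with cGAMP, against 40.4% of all genes higher, with a median of 0.15. Timp1, a metalloproteinase inhibitor, was the only one past 2-fold, at 89.0 and 250.1 CPM (1.49; interval 1.45 to 1.53), and it was higher in all 8 clusters. Myc followed at 0.73 and Bcl2l1, a survival factor, at 0.42, whereas Fosl2 was lower at -0.55. Bcl6 and Vegfa did not reach 5 CPM. Of 5 other C/EBP and partner factors, all were higher by any amount, against the same 40.4%, but most by little: the median was 0.09 and the lowest 0.05. Only Cebpa was past 2-fold, at 4.44 and 10.8 CPM (1.28, and 0.98 with cluster proportions held). Cebpa met the 5 CPM minimum only in the cGAMP library, so the minimum fixed its direction. Ddit3 (0.29), Cebpg (0.09) and Trib1 (0.06) differed less.

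The 5 acute-phase and C/EBP target genes with at least 5 CPM were all higher with cGAMP, again against 40.4% of all genes, with a median of 0.93. Lcn2 and Csf3 met that minimum only in the cGAMP library, so the minimum fixed their direction. Lcn2, which encodes the siderophore-binding protein lipocalin-2, was at 0.565 CPM (52 UMIs) and 15.0 CPM (950 UMIs), a log2 ratio of 4.73 (4.33 to 5.16). Csf3, which encodes the neutrophil growth factor G-CSF, was at 4.12 and 76.9 CPM, a log2 ratio of 4.22 (4.07 to 4.38). The ratio of Csf3 was 3.56 with cluster proportions held and 3.47 without clusters 3 and 8. The chemokine genes Cxcl2 and Cxcl1 had ratios of 0.93 and 0.49. That of Cxcl1 was 0.31 with cluster proportions held and 0.13 without clusters 3 and 8. Lrg1, the remaining gene of these 5, is also one of the stalk-like markers. In cluster 3, Csf3 was at 23.4 CPM with PBS and 236 CPM with cGAMP. This cluster held 71.5% of the Csf3 UMIs and 23.3% of the UMIs of all genes in the cGAMP library. The 5 ECs richest in Lcn2 held 25.0% of its UMIs with PBS and 21.3% with cGAMP, and without them the ratio was 4.80. Neutrophils also express Lcn2, and the neutrophil marker genes S100a8 and S100a9 had log2 ratios of 4.31 and 5.20. In the ECs without any leucocyte, fibroblast, pericyte or epithelial marker UMI, the ratio of Lcn2 was 5.63 and that of Csf3 4.58. These were 1044 PBS-treated and 320 cGAMP-treated ECs, with Lcn2 at 0.339 and 16.8 CPM. The part of neutrophil RNA in the Lcn2 values was not tested. Saa3, Hp, C3, Serpina3n, Ptx3, Cp, Cxcl5, Ptgs2, G0s2 and Il1b did not reach 5 CPM.

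**Figure D5:**
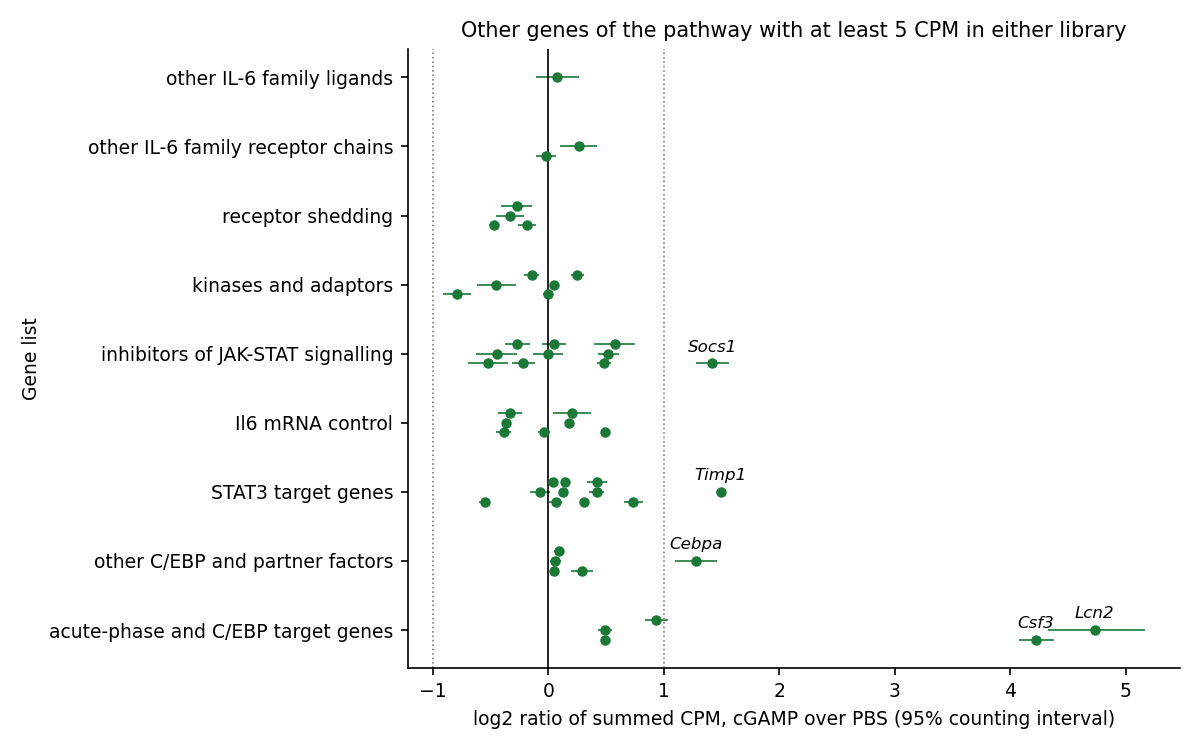
Log2 ratio of summed CPM, cGAMP over PBS, with 95% counting intervals, for the genes of the 9 pathway lists with at least 5 CPM in either library; dotted lines mark 2-fold. Socs1, Timp1, Cebpa, Csf3 and Lcn2 are the 5 genes past the upper line, and no gene passes the lower.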

How the data were processed

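Droplet-based scRNA-seq was available for 1 library of PBS-treated and 1 of cGAMP-treated tumour ECs. Per the labels and the methods, the authors aligned reads to mm10 with Cell Ranger 3.0.0, used Seurat 3.1.1, and removed cells with under 500 genes or over 10% mitochondrial UMIs, genes in under 3 cells, and Pecam1-negative clusters. Deposited values, as the authors made them, are the natural log of 1 plus UMIs per 10000 UMIs of the cell. Undoing the logarithm and dividing by each cell's smallest step gave UMIs, of which 100% were within 0.01 of whole. The droplet kit is version 2 in the labels but version 3 in the methods. The libraries share 1 cell barcode. No doublet caller was run.

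UMIs were summed per library or cluster and scaled to CPM. Poisson, Clopper-Pearson and conditional Clopper-Pearson 95% intervals were computed with scipy 1.17.1. Clusters were built in Seurat 5.3.0 (R 4.3.3) from 2500 variable genes, of which 1779 were kept, with integration, 30 principal components and resolution 0.5. A marker was raised at 2-fold or more over the other clusters, with 5 CPM added. Clusters were named from at least 3 raised markers, except cluster 8, which had no stalk-like marker among its 10 leading genes. The rebuilt names need not be those of the study. The ratio step was tested on simulated data. Figures were drawn with matplotlib 3.10.9.

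The members and lists were chosen with earlier results of these data known. Named were the 9 members, from each pathway list the 4 genes of largest absolute log2 ratio with at least 5 CPM in either library, and for Il6, Cebpb, Cebpd and Socs3 the 3 genes most alike (at least 20 CPM, clusters of at least 40 cells), besides marker and leading genes. Cntf, Cntfr, Cebpe, Orm1, Cd3e, Nkg7, Cdh1 and Krt7 of the lists were not analysed here. Alternatives were other summaries, scalings, minimum levels, cell subsets, clusterings and thinnings. Sequences are from RefSeq.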

Additional observations from a re-analysis of the deposited data

Results flagged for a closer look

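Il6st and Osmr were noted because their counting intervals lay on opposite sides of 0 in different clusters. The log2 ratio of Il6st, cGAMP over PBS, was 0.47 in cluster 8 and -0.65 in the stalk-like cluster 3. That of Osmr was 1.77 in the tip-like cluster 7 and -0.53 in cluster 3. At resolution 0.3 and without integration, Il6st was lower with cGAMP in every cluster compared. The difference between clusters was not tested, since each condition is 1 library. Cluster 8 held 47 and 54 cells and cluster 7 held 99 and 59, and the leucocyte marker level of cluster 7 was 41.8 and 294 CPM.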

How the results depend on the processing

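No paired analysis was possible because each condition is 1 library. Over 10 alternatives each, the log2 ratio stayed between 1.22 and 1.66 for Il6, 1.43 and 1.83 for Cebpb, 0.72 and 1.04 for Socs3 and 0.72 and 1.31 for Lifr. Members 2-fold or more higher numbered 2 to 4. The ratio of Il6st turned to -0.22 with cluster proportions held and to -0.22 without clusters 3 and 8, and that of Osmr to -0.077 with proportions held. The difference in share of ECs with a Cebpd UMI turned from -5.42 to 2.29 percentage points without thinning, when 7 members had higher and 0 lower shares with intervals apart, instead of 4 and 1. The median ratio of the members, 0.55, was 0.32 with proportions held, 0.21 with no minimum level, 0.67 in cells with at most 5% mitochondrial UMIs, 0.67 in cells without markers of other cell types, and 0.43 without clusters 3 and 8. Pathway genes 2-fold or more higher numbered 2 at a minimum of 20 CPM and 14 with no minimum, and 1 (Vegfa) was lower in cells without markers of other types. At resolution 0.8, members higher in every cluster numbered 1 and lower 1, instead of 4 and 2. Leaving out cluster 7, or clusters 3 and 8, was chosen after seeing the data. The remaining counts stayed within 1.5 times and the remaining medians within 0.1. The cause of these shifts was not tested. Depth limits Il6ra most.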

Other observations

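Among the IL-6 family ligands under 5 CPM in both libraries, Il27 had 21 UMIs in the PBS and 201 in the cGAMP library (0.228 and 3.17 CPM), and Osm 6 and 21 UMIs (0.0652 and 0.331 CPM). Il11 had 78 and 41 UMIs and Lif 14 and 6. Of the acute-phase genes below that level, Serpina3n had 48 and 154 UMIs, Cp 59 and 159, C3 27 and 60, Il1b 53 and 243, Ptgs2 73 and 114, G0s2 5 and 35, and Hp 9 and 25. Saa3 had 174 and 177, Ptx3 18 and 11, and Cxcl5 5 and 5. Several rest on few cells: the 5 cells richest in the gene held 68.8% and 33.1% of the Serpina3n UMIs, 55.9% and 40.9% of those of Cp, and 52.8% and 71.6% of those of Il1b. Myeloid cells also make Il27, Osm and Il1b, and the leucocyte marker level was higher in the cGAMP library. The part of that in these values was not tested.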
